A study of Mus musculus with 14 samples.

Results

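The 8 genes described here were grouped as choroid plexus and meningeal secretory genes: Kl, Ttr, Folr1, Ptgds, Calml4, Enpp2, Igfbp2 and Prlr. Not all are secreted products, as Folr1 and Prlr are receptors and Calml4 is a calmodulin-like protein. The 8 genes were picked by gene symbol, with results of these same arrays already known. Their levels and differences below are therefore a description and carry no p-value. Of the 8 genes, 6 had a probe set on the array under that symbol, with 9 probe sets among 12422 non-control probe sets. Enpp2 (autotaxin) and Prlr (the prolactin receptor) were not analysed here. Folr1 had 2 probe sets, Ptgds had 3, and Kl, Ttr, Calml4 and Igfbp2 had 1 each.

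The study followed medulloblastoma, a tumor of the cerebellum, through 3 stages on 14 expression arrays. All mice carried 1 mutant copy of patched (patched heterozygous, patched+/-), a line kept by breeding with 129X1/SvJ mice, so no group had normal patched. Granule cell precursors (GCP, n = 4) came from mice 7 days old, preneoplastic cells (pretumor, n = 5) from mice 6 weeks old, and tumor cells (tumor, n = 5) from sick mice between 10 and 25 weeks of age. The labels also mention a Math1-GFP reporter cross and do not say which arrays, if any, used it. Cerebella were dissociated with papain and DNase, and the cells that gathered between the 35% and 65% Percoll steps were frozen without flow sorting, so cells of other types could be present. Age and stage differ together, and their parts cannot be told apart. The labels do not say that samples of a group came from separate animals, so the spread between them may be partly technical.

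The choroid plexus is a sheet of secretory epithelium inside the brain's ventricles, and one lies in the fourth ventricle against the cerebellum. It makes cerebrospinal fluid, releases transthyretin in large amounts, and carries folate and other solutes from blood to fluid. The meninges, the fibroblast-rich membranes on the brain surface, release prostaglandin D synthase and IGF-binding proteins, and mature oligodendrocytes also make prostaglandin D synthase. In a bulk sample, fewer cells of a type and less RNA per cell cannot be told apart.

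The 250 bases before the annotated start are shown, from RefSeq in GRCm38.p6, for 3 genes with a called difference between pretumor and tumor cells (a limma p under 0.05 after adjustment over all probe sets), so that their upstream regions can be read side by side. Capitals mark matches to an E-box (CANNTG) or a GC box (GGGCGG) on either strand. Kl lies at chr5:150952357-150952606 on the + strand, Calml4 at chr9:62857854-62858103 on the + strand, and Ptgds at chr2:25469750-25469999 on the - strand.
Kl: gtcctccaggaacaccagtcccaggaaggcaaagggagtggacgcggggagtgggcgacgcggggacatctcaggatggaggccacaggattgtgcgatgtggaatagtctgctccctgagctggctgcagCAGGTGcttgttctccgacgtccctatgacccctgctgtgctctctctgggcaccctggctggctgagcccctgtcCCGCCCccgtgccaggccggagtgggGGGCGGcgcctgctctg
Calml4: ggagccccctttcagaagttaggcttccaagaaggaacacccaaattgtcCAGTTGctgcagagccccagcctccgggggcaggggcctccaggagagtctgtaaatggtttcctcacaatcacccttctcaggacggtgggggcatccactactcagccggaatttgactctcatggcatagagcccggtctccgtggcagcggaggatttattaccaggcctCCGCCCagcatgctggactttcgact
Ptgds: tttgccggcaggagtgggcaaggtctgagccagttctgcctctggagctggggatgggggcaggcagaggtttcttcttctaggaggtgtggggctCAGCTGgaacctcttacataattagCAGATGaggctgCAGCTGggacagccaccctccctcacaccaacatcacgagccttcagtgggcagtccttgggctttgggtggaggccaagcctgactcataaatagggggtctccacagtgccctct
Kl held 1 E-box, 119 bases before the start, and 2 GC boxes, 43 and 17 bases before it. Calml4 held 1 E-box at 200 bases and 1 GC box at 26 bases. Ptgds held 3 E-boxes, at 154, 129 and 117 bases, and no GC box. E-boxes stood in 66.2% and GC boxes in 32.7% of all 32851 RefSeq windows of this length. TAATCC, the core that Otx factors bind, TGTTTAC, a forkhead core, and TATAAA stood in 6.25%, 3.17% and 12.4% of windows and in none of these 3. A match is a string of letters, not evidence of binding.

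Each array gave 1 intensity per probe set on a linear scale, and levels below are intensities or their log2. Array medians lay between 4.12 and 4.39, and 70.5% of values were below 16, a range called the low band here. A fold against a mean in the low band is given as "at least", measured from 16, and no fold is given where both means lie there. GCP 1 resembled GCP 2, and GCP 3 resembled GCP 4 (both r = 0.9927), more than arrays of different pairs resembled each other (r = 0.9792 to 0.9845). Tumor 4 and tumor 5 likewise resembled each other (r = 0.9846) more than any other pair of tumor arrays did (r = 0.9463 to 0.9702). Pretumor 3 and tumor 2 lay furthest out, at 23.4 and 23.2, on an axis that took 37.7% of the variance of deviations from the group means. The log2 ratio of 3' to 5' Gapdh signal was 0.46 and 0.56 in GCP 1 and GCP 2, -0.02 in both GCP 3 and GCP 4, 0.01 to 1.08 in pretumor and 0.15 to 0.42 in tumor arrays.

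In pretumor cells the genes of the set stood mostly above their GCP levels, and in tumor cells all 6 stood below their pretumor levels with no overlap between the groups. The 4 genes with the lowest tumor minus pretumor difference among 8251 genes, each taken by its brightest probe set, were Ttr, Calml4, Kl and Ptgds. With a floor or a pseudocount of 16, Ttr, Calml4 and Ptgds were the lowest 3, Car2 came next, and Kl was rank 8 or rank 7 from the lowest. These genes were chosen with that pattern in view. Set against GCP cells, the tumors overlapped for Kl, Ttr and Ptgds and lay below every GCP array for Calml4, Folr1 and Igfbp2. Where 3 values of a comparison are given in a row, the first sets pretumor against GCP cells, the next sets tumor against GCP cells, and the last sets tumor against pretumor cells. Where 3 levels of a gene are given, they are mean log2 intensities in GCP, pretumor and tumor cells.

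**Figure D1:**
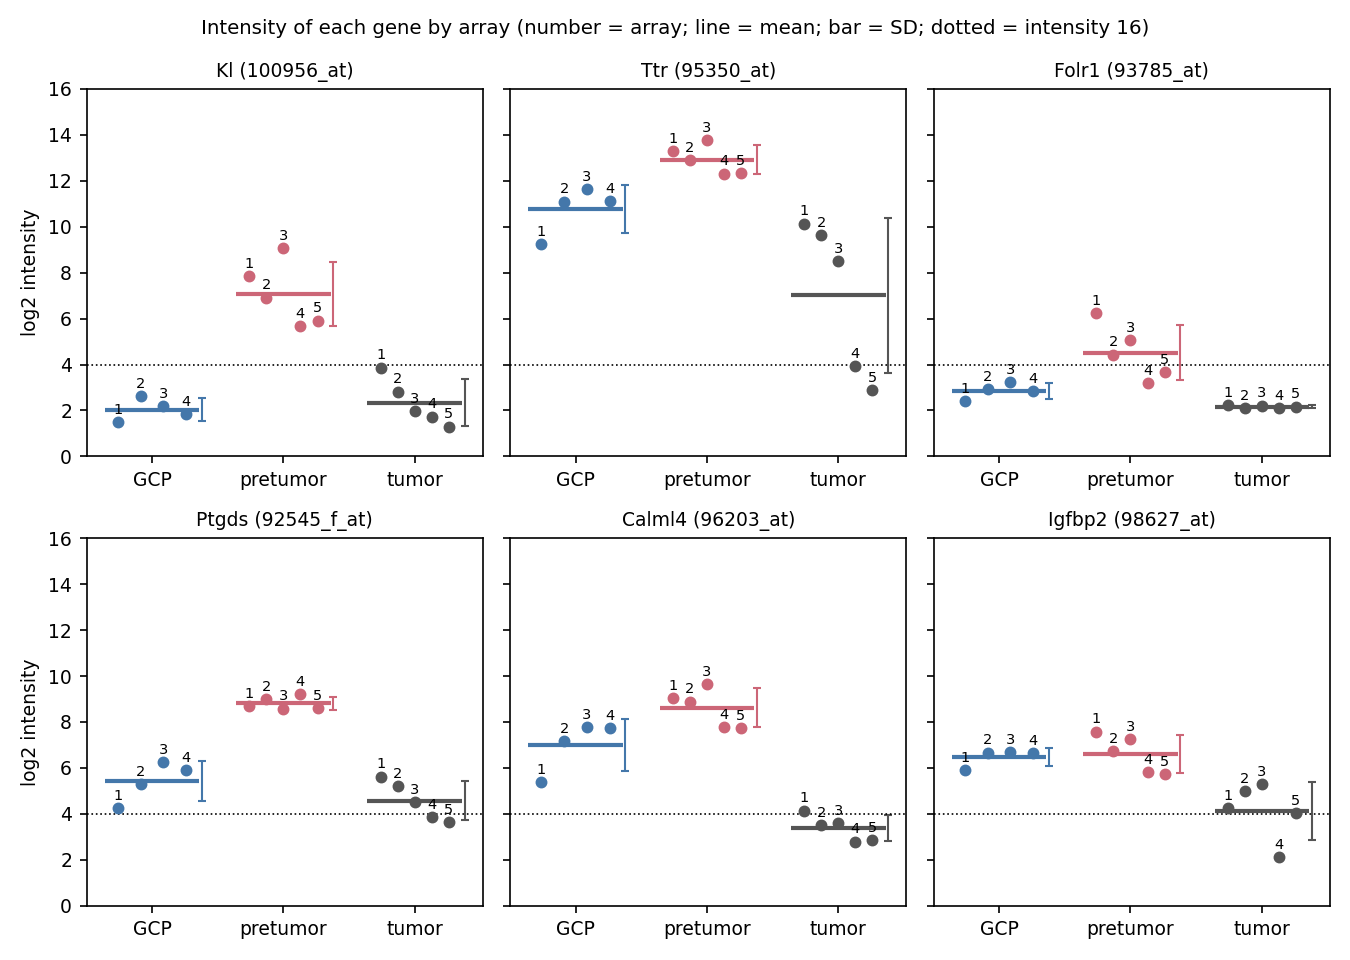
Log2 intensity (vertical axis) of the brightest probe set of each of the 6 genes in the GCP, pretumor and tumor arrays. Each point is an array with its number, the line is the group mean, the bar its SD, and the dotted line an intensity of 16. All 5 tumor points lie below all 5 pretumor points in each panel, and Ttr in tumors runs from 7.35 to 1130 in intensity.

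Transthyretin (Ttr, 95350_at), which carries thyroxine and the retinol-binding protein and is a main secreted product of the choroid plexus, varied the most of the set among the tumors. Its intensity was 610, 2180, 3190 and 2220 in GCP 1 to 4. It was 10000, 7600, 14000, 5080 and 5170 in pretumor 1 to 5, and 1130, 795, 362, 15.1 and 7.35 in tumor 1 to 5. Every pretumor array lay above every GCP array, and every tumor array lay below every pretumor array. The tumors differed 154-fold among themselves, with tumor 4 and tumor 5 in the low band and tumor 1 and tumor 2 above GCP 1. In log2 units the group means were 10.77 ± 1.05 (SD, n = 4), 12.92 ± 0.63 (SD, n = 5) and 7.01 ± 3.37 (SD, n = 5). The pretumor mean was 2.14 above the GCP mean (SE 1.38, 95% interval -0.88 to 5.17), a 4.42-fold difference. The tumor mean was 59.9-fold below the pretumor mean (log2 difference -5.90, interval -8.75 to -3.06) and 13.5-fold below the GCP mean (-3.76, interval -6.78 to -0.74), although tumor and GCP arrays overlapped. limma called none of the 3 Ttr differences, and it called the one between tumor and pretumor cells in 5 of 25 alternative fits.

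Red blood cell markers also varied widely over the tumors. Their summed intensity over 5 measured genes ran from 1920 to 4380 in GCP, from 749 to 3420 in pretumor and from 18.7 to 394 in tumor arrays. Their part in the Ttr spread was not tested.

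Klotho (Kl, 100956_at), a membrane protein that is also shed, is a co-receptor for the hormone FGF23 and is made in kidney and choroid plexus. Its intensity was 2.81, 6.17, 4.59 and 3.60 in GCP 1 to 4, all in the low band. It was 230, 120, 533, 51.3 and 60.2 in pretumor 1 to 5, and 14.6, 7.06, 3.95, 3.32 and 2.45 in tumor 1 to 5, where every array was again in the low band. The pretumor arrays stood apart from both other groups, with pretumor 3 at 10.4 times pretumor 4. Group means were 2.04 ± 0.49 (SD, n = 4), 7.08 ± 1.40 (SD, n = 5) and 2.34 ± 1.02 (SD, n = 5). The pretumor minus GCP difference, 5.04 (SE 0.70, interval 3.52 to 6.56, at least 8.47-fold), was the highest of all 8251 genes. That place depended on how the lower end was treated. With a floor at 16, Kl was rank 4 and Ptgds rank 2, and with a pseudocount of 16 Kl stayed at rank 1. The tumor minus pretumor difference was -4.74 (SE 0.66, interval -6.17 to -3.31, also at least 8.47-fold), and tumor minus GCP was 0.30 (interval -1.22 to 1.82). Because the low band sets the lower end, the pretumor minus GCP difference was 3.08 with a floor at 16 and 2.95 with a pseudocount of 16. Without pretumor 3 and tumor 2 it was 4.55.

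The folate receptor Folr1 (93785_at), which takes up folate and moves it across the choroid plexus epithelium, was dim. Its intensity was 5.29, 7.67, 9.44 and 7.16 in GCP 1 to 4. It was 76.0, 21.6, 33.2, 9.05 and 12.8 in pretumor 1 to 5, and 4.64, 4.30, 4.62, 4.26 and 4.48 in tumor 1 to 5. Pretumor 1, 2 and 3 left the low band, and pretumor 4 lay within the GCP range. The tumor arrays lay within 1.09-fold of each other and below every GCP array, with both groups in the low band. Group means were 2.85 ± 0.35 (SD, n = 4), 4.52 ± 1.20 (SD, n = 5) and 2.16 ± 0.06 (SD, n = 5). Pretumor minus GCP was 1.66 (SE 0.48, interval 0.61 to 2.72) and tumor minus pretumor -2.36 (SE 0.46, interval -3.36 to -1.37), each at least 1.43-fold. With a floor at 16 these were 0.75 and -0.75. The second Folr1 probe set, 162302_f_at, whose suffix marks probes that can match related sequences, stayed between 3.19 and 6.28 on all arrays.

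Calml4 (96203_at) encodes a calmodulin-like protein. Its intensity was 41.6, 142, 216 and 211 in GCP 1 to 4. It was 527, 472, 802, 220 and 211 in pretumor 1 to 5, and 17.6, 11.4, 12.1, 6.88 and 7.21 in tumor 1 to 5. Pretumor 4 and 5 were level with GCP 3 and 4, and GCP 1 was the lowest of the early arrays. All tumors lay below all arrays of both other groups, and only tumor 1 reached 16. Group means were 7.00 ± 1.12 (SD, n = 4), 8.62 ± 0.84 (SD, n = 5) and 3.38 ± 0.56 (SD, n = 5). Pretumor minus GCP was 1.61 (SE 0.55, interval 0.42 to 2.81), 3.06-fold. Tumor minus GCP was -3.62 (SE 0.55, interval -4.82 to -2.43, at least 8.01-fold) and tumor minus pretumor -5.24 (SE 0.51, interval -6.36 to -4.11, at least 24.5-fold).

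Ptgds, the lipocalin-type enzyme that makes prostaglandin D2, is released by meninges, choroid plexus and oligodendrocytes. On its brightest probe set, 92545_f_at, whose suffix also marks probes that can match related sequences, intensity was 19.2, 39.3, 76.5 and 59.3 in GCP 1 to 4. It was 415, 514, 382, 590 and 385 in pretumor 1 to 5, and 49.0, 37.0, 22.7, 14.3 and 12.4 in tumor 1 to 5. The pretumor arrays agreed within 1.54-fold, the tightest pretumor group among the 6 brightest probe sets, and stood above all other arrays. Tumor and GCP arrays overlapped. Group means were 5.43 ± 0.87 (SD, n = 4), 8.82 ± 0.28 (SD, n = 5) and 4.56 ± 0.85 (SD, n = 5). Pretumor minus GCP was 3.39 (SE 0.46, interval 2.39 to 4.39), 10.5-fold and rank 4 from the highest of 8251 genes. Tumor minus pretumor was -4.26 (SE 0.43, interval -5.20 to -3.31), 19.1-fold lower, and tumor minus GCP was -0.87 (interval -1.87 to 0.13).

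The other Ptgds probe sets were dimmer and ordered the pretumor arrays differently. Probe set 92546_r_at gave 37.3, 49.5, 10.3, 36.3 and 5.52 in pretumor 1 to 5 and stayed between 3.10 and 4.17 elsewhere. Probe set 102105_f_at gave 19.1, 10.6, 6.62, 11.9 and 5.46 in pretumor arrays and 3.78 to 5.09 elsewhere. Both were thus higher in pretumor arrays, and on both pretumor 3 and pretumor 5 were the lowest of the group. The same 2 arrays had the lowest Gapdh 3' to 5' ratios of the pretumor group, 0.01 and 0.19 against 0.79 to 1.08. The beta-actin ratio gave another order, at 4.13, 4.87, 4.26, 4.39 and 4.23 in pretumor 1 to 5, with pretumor 1 the lowest. The part of either ratio in these values was not tested.

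Igfbp2 (98627_at) encodes a secreted protein that binds insulin-like growth factors and is made by choroid plexus, meninges and astrocytes. Its intensity was 60.1, 101, 102 and 101 in GCP 1 to 4. It was 190, 106, 153, 55.6 and 52.7 in pretumor 1 to 5, and 19.0, 32.1, 39.0, 4.30 and 16.4 in tumor 1 to 5. The pretumor arrays surrounded the GCP arrays, and all tumors lay below both. Group means were 6.47 ± 0.38 (SD, n = 4), 6.61 ± 0.84 (SD, n = 5) and 4.13 ± 1.25 (SD, n = 5). Pretumor minus GCP was 0.14 (SE 0.60, interval -1.17 to 1.45), the smallest of the set. Tumor minus GCP was -2.34 (SE 0.60, interval -3.65 to -1.03), 5.06-fold lower, and tumor minus pretumor -2.48 (SE 0.57, interval -3.71 to -1.25), 5.58-fold lower.

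**Figure D2:**
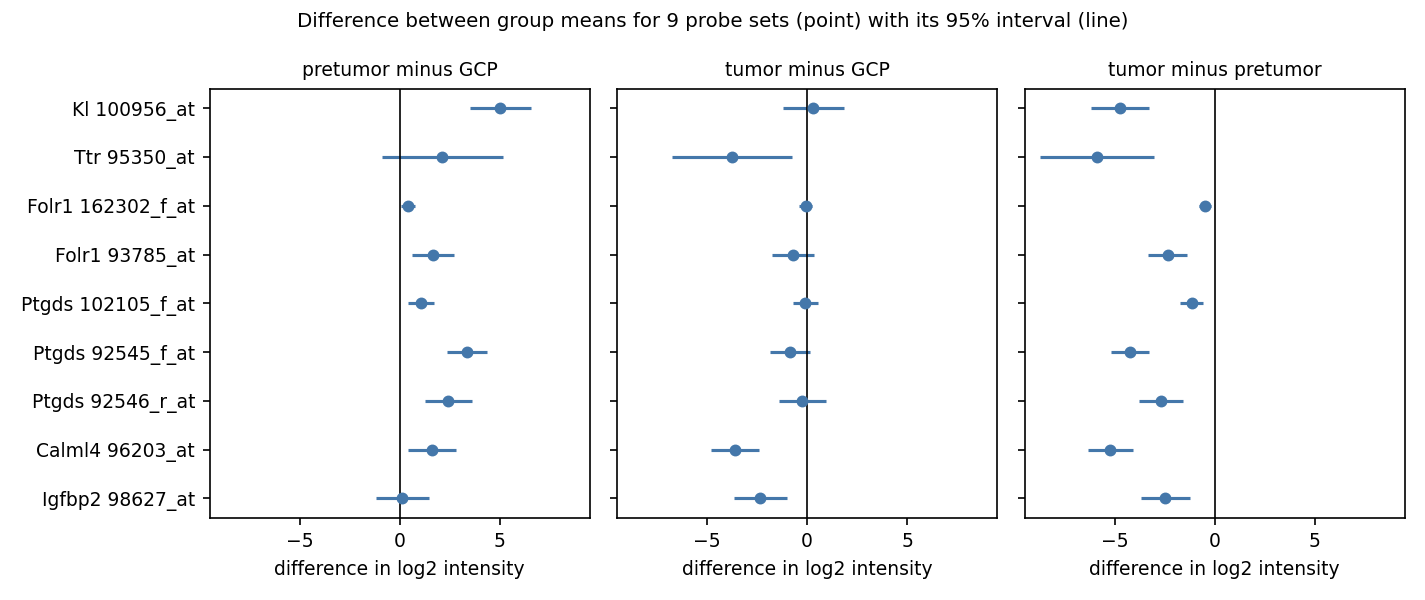
Difference in group means of log2 intensity (horizontal axis) for each of the 9 probe sets in the 3 comparisons, with points for the estimate from the model of all 14 arrays and lines for its 95% interval. The pretumor minus GCP difference runs from 0.14 for Igfbp2 to 5.04 for Kl, and all 9 tumor minus pretumor differences are below 0.

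Counted over the set, limma called 2 of 6 genes higher in pretumor than in GCP cells, Kl and Ptgds, where 2.12% of all genes had a probe set called higher. In tumor against GCP it called 2 of 6 lower, Calml4 and Igfbp2, where 4.12% of all genes were called lower. In tumor against pretumor it called 4 of 6 lower, Kl, Folr1, Ptgds and Calml4, where 1.01% of all genes were called lower. Groups did not overlap for 3, 4 and 6 of the 6 genes in these directions, against 5.98%, 6.11% and 2.01% of all genes, counting a gene if any of its probe sets qualified. The 4 genes in tumor against GCP include Ptgds through 92546_r_at, which lay in the low band in both groups, and by their brightest probe sets 3 genes did not overlap there. The choice of the genes used these contrasts, so nothing is read from the counts. The median differences over the 6 genes were 1.90, -1.60 and -4.50 in the 3 comparisons, where all 8251 genes had -0.01, 0.00 and 0.02. The contrasts share groups with each other and are not separate evidence. Without pretumor 3 and tumor 2, Igfbp2 in tumor against GCP and Folr1 in tumor against pretumor were no longer called, which left 1 and 3 genes. The same calls ended when the GCP pairs were averaged. Leaving out any single array other than tumor 2 or tumor 3 also ended the Igfbp2 call, which left 1 gene. The Folr1 call ended without GCP 2, 3 or 4, without pretumor 2 or 3, and without any single tumor array. That left Kl, Ptgds and Calml4, joined by Ttr without tumor 1 and by Igfbp2 without tumor 3.

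Array by array, the set followed more than 1 order. In GCP arrays, GCP 1 was the lowest for 8 of 9 probe sets and GCP 3 the highest for 7, where GCP 1 was lowest for 29.7% and GCP 3 highest for 23.6% of 3357 genes that reached 16 on some array. In tumors, tumor 1 was the highest for 7 of 9 probe sets (25.5% of genes), and tumor 4 or tumor 5 the lowest for 4 and 3 (13.5% and 18.0%). In pretumor arrays, Kl, Ttr and Calml4 were highest in pretumor 3, Folr1 and Igfbp2 in pretumor 1, and all 5 genes were lowest in pretumor 4 or 5. Ptgds on 92545_f_at was highest in pretumor 4 and lowest in pretumor 3. The ratio of the highest to the lowest pretumor array was 10.4 for Kl, 8.40 for Folr1, 3.80 for Calml4, 3.61 for Igfbp2, 2.75 for Ttr and 1.54 for Ptgds. The median was 1.47 over the 2861 genes at 16 or more on all pretumor arrays, a condition that Folr1 did not meet.

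F5 (coagulation factor V) and Slc4a5 (a bicarbonate transporter), both known from the choroid plexus, followed the first order. F5 stood at 10.2, 11.8, 25.1, 3.23 and 3.49 in pretumor 1 to 5 and at 2.04 to 2.71 elsewhere. Slc4a5 stood at 15.0, 9.39, 23.9, 3.66 and 4.74 in pretumor arrays and at 2.19 to 4.05 elsewhere. Both were mostly in the low band, and limma called neither (adjusted p = 0.0824 and 0.088 in pretumor against GCP, 0.146 and 0.0791 in tumor against pretumor). Mal, a membrane protein of myelin, followed the Ptgds order, at 101, 150, 32.1, 190 and 83.9 in pretumor 1 to 5. Gsn, an actin-severing protein of mature oligodendrocytes, did so too, at 58.1, 69.1, 14.4, 86.6 and 27.2. F5, Slc4a5, Mal, Gsn and the other genes of this comparison were chosen after their values were seen.

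**Figure D3:**
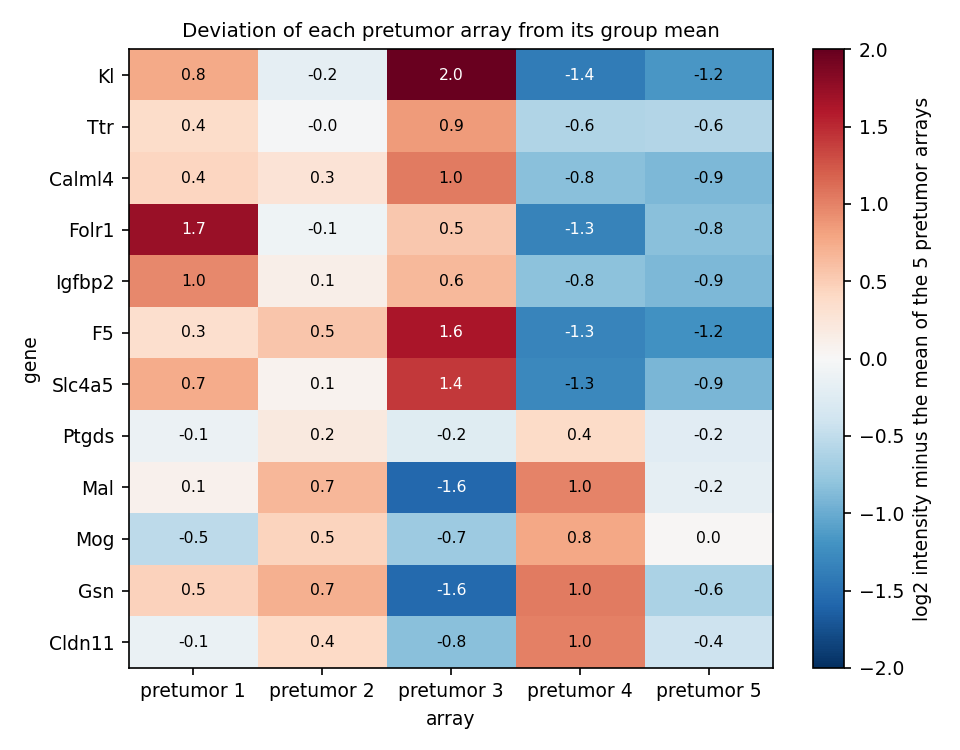
Deviation of each of the 5 pretumor arrays (columns) from the mean log2 intensity of the group for 6 genes of the set and 6 other genes (rows), with the colour scale from -2 to 2 log2 units. Kl, Ttr, Calml4, Folr1, Igfbp2, F5 and Slc4a5 are low in pretumor 4 and 5, while Ptgds, Mal, Mog, Gsn and Cldn11 are highest in pretumor 4 and lowest in pretumor 3. Car2, Mbp, Qdpr, Pdgfra and Cab39l, which are not shown, follow neither pattern.

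Over all 14 arrays, the deviations of Kl from its group means correlated with those of Slc4a5 (Pearson r = 0.81, Spearman rho = 0.77), F5 (0.77 and 0.81), Calml4 (0.76 and 0.80), Ttr (0.64 and 0.72) and Folr1 (0.64 and 0.79), and with those of Mal at -0.30 and 0.02. Ptgds deviations correlated with those of Ttr at 0.79 and 0.73, Mog at 0.78 and 0.75, Mal at 0.58 and 0.71, Folr1 at 0.04 and 0.16 and Slc4a5 at -0.08 and -0.04. Ttr thus went with both Kl and Ptgds, and so did Calml4, at 0.65 and 0.53 with Ptgds. Car2 did so too, at 0.65 and 0.63 with Kl and at 0.75 and 0.79 with Ptgds. These are descriptions over 14 arrays that share the GCP pairs and the outlying arrays named above.

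Among 3351 other genes, the 3 whose level was most like each gene over the 14 arrays were found by Pearson r, which the group differences largely shape. For Kl they were Car2 (r = 0.92), Slc4a5 (0.91) and F5 (0.90). For Ttr they were Degs1 (0.97), Plpp3 (0.92) and Clu (0.92), and for Folr1 Chchd10 (0.94), Slc4a5 (0.93) and Etfb (0.89). For Ptgds they were Car2 (0.97), Mog (0.96) and Mal (0.93). For Calml4 they were Prxl2a (0.92), Smpdl3a (0.91) and Mbp (0.91), and for Igfbp2 Gja1 (0.91), Aldh2 (0.91) and Smpdl3a (0.90). With the group means taken out, the closest were Tpd52 for Kl (0.84), Ptpn13 for Ttr (0.94), Etfb for Folr1 (0.84), Degs1 for Ptgds (0.84), Acadm for Calml4 (0.85) and Actn1 for Igfbp2 (0.88).

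The name of the set was checked against other markers of the tissues it refers to. Of 32 other choroid plexus markers 18 were measured, and 13 of them stayed below 16 on all pretumor arrays, among them Aqp1, Cldn1 and Cldn2. Car12, a carbonic anhydrase, rose in pretumor against GCP by 0.50 (limma adjusted p = 0.0258) and fell by 0.61 in tumor against pretumor (adjusted p = 0.0187), within the low band. Msx1, a transcription factor, fell by 0.42 in tumor against pretumor (adjusted p = 0.0345), also within the low band. The Car12 calls ended in 9 and 6 of 25 alternatives. Both ended with a floor at 16, where the differences were 0.00, with the compared groups alone (adjusted p = 0.0817 and 0.0662) and without pretumor 3 and tumor 2 together, and the first also with the GCP pairs averaged (adjusted p = 0.139). Single arrays that ended them were GCP 1, 2 or 4 and pretumor 2 or 3 for pretumor against GCP, and pretumor 2 and tumor 1 or 4 for tumor against pretumor. The Msx1 call ended in 15 of 25 alternatives, among them those without any single tumor array. These were the 1 call and the 2 calls of the list in those comparisons, and limma called 0 in tumor against GCP. At an unadjusted p under 0.05 the list had 5 genes higher and 1 lower in pretumor against GCP, 0 and 2 in tumor against GCP, and 1 and 10 in tumor against pretumor. Over all genes taken by their brightest probe set, it called 1.99% higher and 3.25% lower in pretumor against GCP, 1.70% and 3.93% in tumor against GCP, and 0.133% and 0.957% in tumor against pretumor. The list's median differences were 0.17, -0.04 and -0.26 in the 3 comparisons. Slc12a2, the sodium-potassium-chloride transporter of the plexus and of other cells, was the brightest of the list and stood at 9.10 ± 0.07, 9.72 ± 0.31 and 9.11 ± 0.47 in log2 units, with adjusted p = 0.173 in pretumor against GCP. The summed intensity of the 18 genes ran from 610 to 679 in GCP, from 699 to 1240 in pretumor and from 412 to 834 in tumor arrays. Slc12a2 alone ran from 520 to 585, from 601 to 1100 and from 318 to 755, so this sum too mostly gives the level of 1 gene.

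Of 25 listed meningeal markers 24 were measured, and limma called 1 higher and 3 lower in pretumor against GCP, 0 and 3 in tumor against GCP, and 0 and 2 in tumor against pretumor. The median differences of the list were -0.04, -0.14 and 0.03 in the 3 comparisons. Col3a1, a fibrillar collagen, fell by 2.64 in pretumor against GCP (limma adjusted p = 0.000722), to a mean of 2.00 in the low band. Dcn, the proteoglycan decorin and a main product of meningeal fibroblasts, stood at 8.92, 6.52 and 6.01 in the 3 groups (adjusted p = 0.121 in pretumor against GCP and 0.0573 in tumor against GCP). Gjb6, a connexin, rose by 0.92 (adjusted p = 0.00169) and fell by 1.27 in tumor against pretumor (adjusted p = 0.0004), within the low band, and both calls ended with a floor at 16. The summed intensity of the list ran from 530 to 1060 in GCP, from 211 to 313 in pretumor and from 103 to 542 in tumor arrays. Dcn alone took 339 to 764 of it in GCP arrays. Every pretumor array thus had a lower meningeal sum than every GCP array, where Kl and Ptgds were higher in every pretumor array. Its part in the values of the set was not tested. The ependymal list, 9 of 16 measured, had 0 limma calls in pretumor against GCP and in tumor against pretumor, with 1 and 4 genes at an unadjusted p under 0.05. In tumor against GCP limma called 1 ependymal gene lower, Mia, which fell by 1.90 (adjusted p = 0.00327).

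Oligodendrocyte markers were called in the same directions as the set. Of 20 listed genes 15 were measured, 6 rose and 0 fell in pretumor against GCP by limma, and 6 fell and 0 rose in tumor against pretumor. At an unadjusted p under 0.05 these were 9 and 1, then 10 and 1. Their median differences were 0.59 and -1.10. Mal rose at least 5.94-fold (adjusted p = 0.00189) and fell at least 5.94-fold in tumors (adjusted p = 0.00366). Car2, a carbonic anhydrase of oligodendrocytes and also of choroid plexus, rose 7.16-fold (adjusted p = 0.00382) and fell 14.5-fold (adjusted p = 0.000988), with the rise no longer called when the GCP pairs were averaged (adjusted p = 0.0596). The summed intensity of the list ran from 1770 to 2040 in GCP, from 2700 to 4560 in pretumor and from 1530 to 2780 in tumor arrays. Qdpr alone ran from 1340 to 1760, from 1910 to 3010 and from 1260 to 2510, so the sum mostly gives the level of 1 gene. The part of the oligodendrocyte markers in the values of Ptgds and Igfbp2 was not tested.

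Of the remaining lists, astrocyte markers (10 of 12 measured) had 1 called higher and 1 lower in pretumor against GCP and 0 higher and 5 lower in tumor against GCP. In tumor against pretumor 0 were called higher and 2 lower, and the median differences were -0.34, -0.63 and -0.80 in the 3 comparisons. Fabp7, the brightest of the list, stood at 13.24, 9.78 and 9.40. limma called it lower in pretumor and in tumor cells than in GCP cells, and these calls ended in 0 alternatives. Gja1, an astrocyte connexin and the gene most like Igfbp2, stood at 9.43, 8.93 and 6.83 and fell 6.04-fold in tumor against GCP (adjusted p = 0.00607), a call that ended with the compared groups alone (adjusted p = 0.0526) and with the GCP pairs averaged (adjusted p = 0.076). Endothelial and pericyte markers (13 of 18) had 4 and 6 called lower in pretumor against GCP and in tumor against GCP, microglial markers (15 of 18) 2 and 2 higher, and granule cell precursor markers (11 of 16) 2 and 2 lower. In tumor against pretumor limma called 0 genes of these 3 lists, with 4, 2 and 1 at an unadjusted p under 0.05. Of the granule precursor genes, the transcription factors Pax6 and Neurod1 fell in pretumor against GCP, from 10.54 to 8.80 (adjusted p = 0.0108) and from 12.83 to 11.45 (adjusted p = 0.00706), and stood at 8.31 and 11.58 in tumors, where both were called lower than in GCP cells. Averaging the GCP pairs ended both Neurod1 calls and the Pax6 call between pretumor and GCP cells (adjusted p of 0.0886 to 0.121). Zic1, another transcription factor of that lineage, was the brightest of the list, at 12.74, 12.59 and 12.64, and was not called. The parts of these cell types in the levels of the set were not tested.

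**Figure D4:**
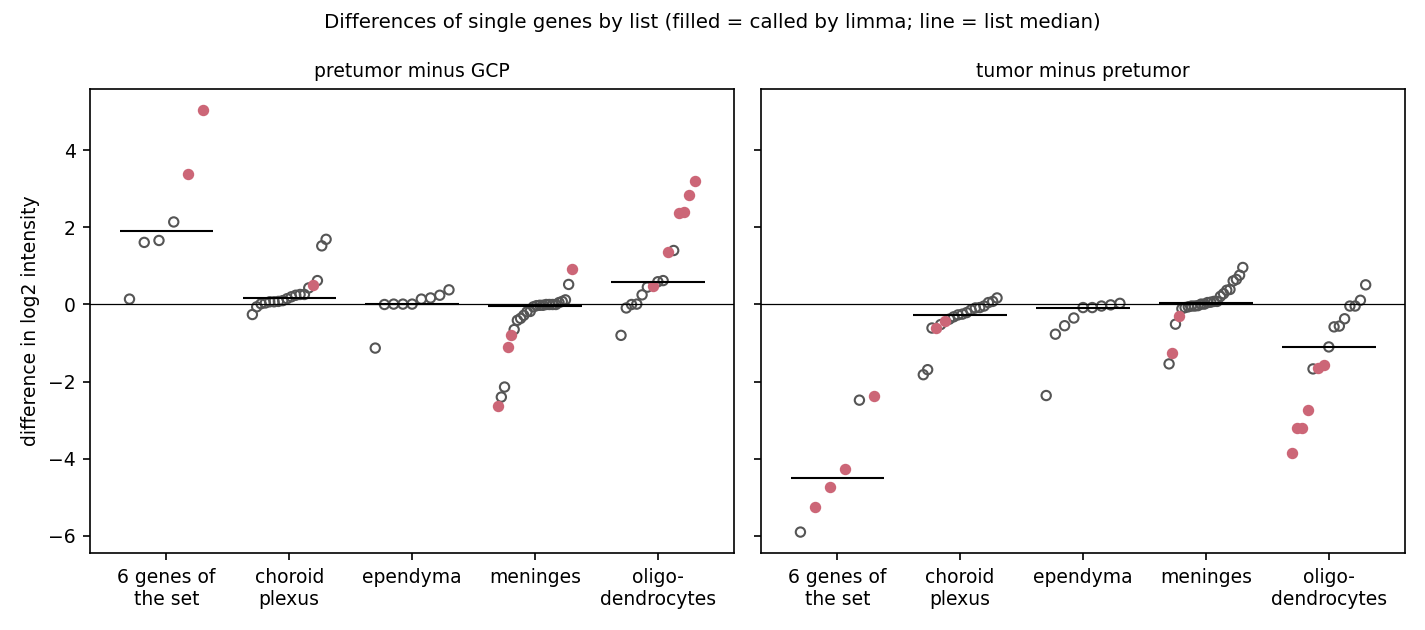
Difference in log2 intensity (vertical axis) of single genes in the set of 6 and in 4 marker lists, for pretumor minus GCP and tumor minus pretumor. Filled points were called by limma, open points were not, and the line is the median, 1.90 and -4.50 for the set, 0.17 and -0.26 for choroid plexus and 0.59 and -1.10 for oligodendrocytes.

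Few genes of the pathways around the 8 genes were called, but most of those measured stayed below 16 on every array. Those that reached 16 on some array were 2 of 7 for Kl, 3 of 11 for Prlr, 4 of 9 for Folr1 and 2 of 7 for Calml4. For Ttr they were 3 of 9, for Enpp2 1 of 6, for Ptgds 2 of 15 and for Igfbp2 3 of 14. The shares of all genes called, given above beside the choroid plexus list, were also low. Nothing is therefore read from the few calls. For Kl, 7 of 12 genes of the klotho and FGF receptor list were measured and limma called 0 in any comparison (1, 1 and 0 at an unadjusted p under 0.05), with Fgfr1, an FGF receptor and the brightest, at 3.67, 3.70 and 3.76. For Prlr, 11 of 14 genes of prolactin receptor signalling were measured and limma called 0 (1, 1 and 1 at an unadjusted p under 0.05). Socs2, an inhibitor of this signalling, was the brightest at 9.23, 9.51 and 10.28 (limma adjusted p = 0.795, 0.0874 and 0.316 in the 3 comparisons). For Folr1, 9 of 14 genes of folate uptake and one-carbon metabolism were measured and limma called 0 (1, 2 and 2 at an unadjusted p under 0.05), with Gart, a purine synthesis enzyme, at 8.56, 8.56 and 8.64. For Calml4, 7 of 10 calmodulin family genes were measured and limma called 0 (0, 0 and 2 at an unadjusted p under 0.05), with Calm2 at 6.09, 5.82 and 5.70.

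For Ttr, 9 of 13 genes of retinol and thyroxine carriage were measured. Rbp4, the plasma retinol-binding protein that travels bound to transthyretin, stood at 5.52, 3.37, 16.1 and 6.56 in GCP 1 to 4. It stood at 32.9, 24.7, 29.1, 19.1 and 38.8 in pretumor 1 to 5 and at 26.9, 32.3, 36.1, 24.0 and 22.3 in tumor 1 to 5. All pretumor and tumor arrays thus exceeded all GCP arrays, and the tumors lay level with the pretumor arrays where Ttr did not. Rbp4 rose at least 1.76-fold in pretumor against GCP (2.08, SE 0.37, adjusted p = 0.00823) and at least 1.74-fold in tumor against GCP (2.06, SE 0.37, adjusted p = 0.00761), and tumor minus pretumor was -0.01 (SE 0.35). Both calls ended with a floor at 16 (adjusted p = 0.0804 and 0.0793). Thra, a thyroid hormone receptor, fell by 0.77 in tumor against GCP (adjusted p = 0.0218), the only lower call of that list. That call ended in 8 of 25 alternatives, among them those without GCP 2, 3 or 4 and without tumor 1 or 4.

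For Enpp2, 6 of 14 genes of lysophosphatidic acid metabolism were measured. Plpp3, a phosphatase that breaks down lysophosphatidic acid, was at 148, 179, 176 and 217 in GCP 1 to 4. It was at 140, 227, 165, 256 and 186 in pretumor 1 to 5 and at 54.7, 80.9, 51.4, 13.8 and 10.9 in tumor 1 to 5. It fell 5.55-fold in tumor against GCP (adjusted p = 0.0205) and 5.92-fold in tumor against pretumor (adjusted p = 0.0345), calls that ended in 6 and 14 of 25 alternatives. Leaving out GCP 2, 3 or 4 ended the first, and leaving out any single GCP or pretumor array, or tumor 4, ended the other. Tumor 4 and tumor 5, the lowest for Plpp3, were also the lowest for Ttr, and they were the tumor arrays most like each other over all probe sets above the low band.

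For Ptgds, 15 of 18 genes of prostaglandin synthesis and its receptors were measured. Ptgis, prostacyclin synthase, fell by 0.21 in pretumor against GCP and by 0.25 in tumor against GCP (adjusted p = 0.00796 and 0.00259), within the low band, and no other gene of the list was called. For Igfbp2, 14 of 15 genes of IGF ligands, receptors and binding proteins were measured. Igfbp4, another IGF-binding protein, fell by 0.59 and 0.39 (adjusted p = 0.000275 and 0.00263), also within the low band. Igfbpl1, an IGFBP-like protein of neural precursors, was the brightest, at 8.93, 8.90 and 8.40, with adjusted p of 1, 0.667 and 0.712 in the 3 comparisons.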

How the data were processed

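Total RNA of 14 samples (GCP 4, pretumor 5, tumor 5, as the titles group them) was measured on 1 array each. The deposited table held 1 linear intensity per probe set and array, made by the authors with a summarisation and normalisation not given in the sources used here. Array medians differed by 0.0939 log2 units at most, under the limit of 0.2, so no further normalisation was applied. After 66 control probe sets were set aside, the deposited intensities were floored at their 10th percentile (2.455) and taken to log2. A model of 3 group means was fitted to all 12422 probe sets with limma 3.58.1 in R 4.3.3 (11 residual and 0.83 prior degrees of freedom), tested two-sided, adjusted by Benjamini-Hochberg over all probe sets and called at an adjusted p under 0.05. The fit was tested on simulated data. For arrays the number of arrays limits the precision.

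Symbols came from the platform annotation: 10833 probe sets had 1 symbol, 396 several and 1193 none, and each of 8251 genes was represented by its brightest probe set. The genes of the set and the 17 gene lists were chosen with earlier results of these data known. All probe sets of the set were named. Other names were drawn from up to 3 called genes per comparison and the brightest gene of each list. The 3 genes most like each gene of the set were also drawn on. Not every gene that met these rules is given in the text. Promoter windows came from RefSeq (GRCm38.p6), with Folr1 and Ttr not used here. The 25 alternatives changed the floor, pseudocount, normalisation, filter, samples fitted, block or moderation, left out each array in turn or, chosen after seeing the data, averaged the GCP pairs or left out pretumor 3 with tumor 2.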

Additional observations from a re-analysis of the deposited data

Results flagged for a closer look

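Igfbp2 (98627_at) in GCP 1 was far below the other arrays of its group, at a log2 intensity of 5.91 against 6.65 to 6.67 in GCP 2 to 4. The gap to the nearest array took 0.98 of the range of the group, above Dixon's critical value for 4 arrays. Chance flags about 1 in 20 groups, and this was 1 of 27 groups tested.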

How the results depend on the processing

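Kl and Ptgds in pretumor against GCP, Calml4 in tumor against GCP, and Kl, Ptgds and Calml4 in tumor against pretumor were called in 25 of 25 alternatives. Igfbp2 in tumor against GCP kept its call in 9 of 25, and Folr1 in tumor against pretumor in 8 of 24. Ttr and Igfbp2 in tumor against pretumor were called in 5 of 25 each. In the order of comparisons used above, 541, 571 and 124 probe sets were called, and 194, 232 and 32 with a floor at 16. With only the compared groups fitted, 335 were called in tumor against GCP and 50 in tumor against pretumor, and with the GCP pairs averaged 168, 198 and 69. Genes of the set called in tumor against GCP numbered 1 in place of 2 with the compared groups alone, with the replicate block, with the GCP pairs averaged and without pretumor 3 and tumor 2. Leaving out 1 array at a time gave 331 to 624, 338 to 709 and 70 to 148 probe sets, and 2 to 3, 1 to 2 and 3 to 4 genes of the set. The labels do not say that the replicate numbers pair samples, so the main fit used no pairing. Same-numbered arrays of different groups had deviations correlated at r of -0.35 to 0.58, above 0.1 in 5 of 13 pairs. Between GCP and pretumor arrays, numbers 1 to 4 gave 0.36, 0.32, 0.58 and -0.28. With replicate numbers as a block, 383, 436 and 76 probe sets were called, and 2, 1 and 3 genes of the set. No direction of a called result turned. The causes were not tested. Signal limits the dim probe sets: Kl in GCP and tumor, and Folr1 outside pretumor, lay in the low band.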

Other observations

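Lcn2, a lipocalin of the same protein family as Ptgds that is released in inflammation, was high in some tumors only. Its intensity was 70.6, 308, 2.53, 63.0 and 3.17 in tumor 1 to 5, against 2.49 to 3.35 on the 9 other arrays. limma did not call it (adjusted p = 0.179 in tumor against GCP and 0.294 in tumor against pretumor). It was named after its values were seen.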
